A study of Mus musculus with 6 samples.

Results

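*Hbq1b* and *Hbq1a* are the theta-globin genes of the mouse α-globin cluster, 2 of the 12 genes annotated in the 180 kb examined on chromosome 11 (mm9). Each gene was described through a window around it. The *Hbq1b* window, chr11:32185001-32194000, runs from just past *Hba-a1* to the start of the *Hba-a2* segment. The *Hbq1a* window, chr11:32198001-32203000, begins past *Hba-a2*. The windows were set by gene position and not by contact values, although earlier results of these data were known. They hold 91 of the 893 NlaIII fragments of the region that occur in the data, 42 in the *Hbq1b* window and 49 in the *Hbq1a* window. Of 349609 contacts in all data sets, 32856 had at least 1 end in a theta window.

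The contacts come from Tri-C, which captures ligated fragments from a chosen viewpoint and keeps reads with several partners, so that each contact pairs 2 reporter fragments seen together with the viewpoint on an allele. The viewpoints were R2, the strongest α-globin enhancer, and the promoter of *Mpg*, a DNA repair gene upstream of the cluster. Both were captured in 3 wild type (WT) and 3 D3839 biological replicates, and the comparison asks which theta contacts differ when CTCF sites upstream of the cluster are disrupted. All cells were Ter-119-selected erythroid cells from spleens of phenylhydrazine-treated female C57BL/6 mice, and D3839 mice carry small deletions in the core CTCF motifs of HS-38 and HS-39. The treatment, which destroys red cells and drives erythropoiesis in the spleen, was shared by both groups, so the cells represent stress erythropoiesis, and age was not given. The library preparation kit also differed between WT and D3839, and its effect and that of genotype cannot be told apart. Contact data hold no transcript levels, so the cell type could not be checked against markers.

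Theta-globin genes are α-like globin genes that lie downstream of the adult α-globin genes, and the contribution of their product to haemoglobin is not established. In the mouse the adult α gene and its theta neighbour are repeated in tandem, so the order along the chromosome is *Hba-a1*, *Hbq1b*, *Hba-a2*, *Hbq1a*. CTCF is a zinc-finger protein that binds an oriented motif, and with the ring complex cohesin such sites often mark the borders of domains of chromatin contact. CTCF sites are known at the theta-globin promoters, downstream of the α genes, as at HS-38 and HS-39 upstream of the enhancers.

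The sequences before the 2 gene starts are shown because they hold this motif and because their likeness limits how contacts can be assigned. *Hbq1b* (ENSMUSG00000073063.3) occupies chr11:32186965-32187784 and *Hbq1a* (ENSMUSG00000020295.1) chr11:32200069-32200873, both on the plus strand. The 250 bases before each start, chr11:32186715-32186964 and chr11:32199819-32200068 in mm9, are given 5′ to 3′ on the plus strand, with the match to the CTCF core motif in capitals. The motif was searched as 12 bases, 7 fixed and 5 free, on both strands.
Hbq1b: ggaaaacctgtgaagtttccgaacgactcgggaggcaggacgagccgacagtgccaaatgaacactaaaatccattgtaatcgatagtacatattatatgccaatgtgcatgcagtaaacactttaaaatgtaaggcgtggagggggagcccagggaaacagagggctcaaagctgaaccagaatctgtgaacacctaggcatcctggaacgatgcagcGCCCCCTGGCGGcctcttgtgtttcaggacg
Hbq1a: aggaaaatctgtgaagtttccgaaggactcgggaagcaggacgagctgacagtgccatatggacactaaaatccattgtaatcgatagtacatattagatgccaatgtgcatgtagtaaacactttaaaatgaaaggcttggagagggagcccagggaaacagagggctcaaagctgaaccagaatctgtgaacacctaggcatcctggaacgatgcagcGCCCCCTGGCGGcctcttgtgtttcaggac

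Each promoter held 1 match, on the minus strand, with the same 12 bases in both genes. The match ends 20 bases before the start of *Hbq1b* and 19 bases before that of *Hbq1a*. A match was held by 7.17% of 32851 mouse promoters of this length in the RefSeq table (GRCm38) and by 6.94% of 720 stretches of 250 bases tiling the region. The 2 promoters aligned over 249 bases with 11 mismatches, an identity of 95.6%. A match of letters is a description and not a measure of binding, since CTCF occupancy was not analysed here.

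The likeness extends over the genes, and 5 NlaIII fragments of the *Hbq1b* window have a copy of at least 95% identity in the *Hbq1a* window. For the fragments of 91 bases at chr11:32186417-32186507 and chr11:32199441-32199531, which are identical, 601 and 592 ends were counted over the 6 R2 samples, and 332 and 329 over the 6 *Mpg* samples. The identical fragments of 87 bases at chr11:32187284-32187370 and chr11:32200389-32200475 gave 459 and 462 ends for R2, and 398 and 387 for *Mpg*. Reads of identical copies cannot be assigned to a gene, and their ends were close to equal in both viewpoints. The 3 other pairs, which differ at 2 to 3% of bases, were not equal for R2, with 347 to 370 ends in *Hbq1a* against 588 to 791 in *Hbq1b*, while for *Mpg* they had 325 to 500 against 322 to 356. Contacts that touched a near-identical fragment made up 31.1 to 42.3% of the WT contacts of the *Hbq1b* window and 21.2 to 47.3% of those of the *Hbq1a* window, over both viewpoints.

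NlaIII cuts the *Hbq1a* window more finely than any of the other 14 segments into which the region was divided, with 10.4 fragments per kb against 5.0 per kb in the *Hbq1b* window. The median fragment length was 60 bases, against 136 in the *Hbq1b* window and 58 in the downstream flank. A stretch of 831 bases that starts 64 bases past the end of *Hbq1a* (chr11:32200937-32201767) is cut into 21 fragments, of which 9 are exactly 30 bases long. Of these, 3 repeat units are shown, plus strand, because this stretch carried the tallest peak of *Mpg* contacts in the windows.
repeat 32201303: tgtgtgtctggtgtgtgtggctgctgtaca
repeat 32201333: tgtgagcctgatgtatgatactgctgtaca
repeat 32201452: tgtgtgtctggtgtatgatgctgctgtaca

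Contacts whose 2 fragments both lie in the region were binned at 1 kb, and those touching the bins of the viewpoint or the bin next to them were dropped. This left 8651 to 16115 contacts per sample for R2 and 10237 to 18951 for *Mpg*. A count of 3 corresponds to at most 0.0347% of a sample's contacts for R2 and 0.0293% for *Mpg*, counting error only. The share of all chromosome 11 contacts that fell in the region was higher in every D3839 sample, 64.7% ± 1.95 (SD, n = 3) against 47.1% ± 1.11 in WT for R2, and 51.6% ± 2.24 against 37.0% ± 4.20 for *Mpg* (two-sided exact permutation test, p = 0.1 for each, the smallest value 3 against 3 samples can give). This shift moves with genotype and kit. Shares below are relative to the region, and values relative to all chromosome 11 contacts are given beside the calls they end.

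From the R2 enhancer, 36.0 kb upstream of *Hbq1b* and 49.1 kb upstream of *Hbq1a*, both windows were contacted at a like level per kb in WT cells. As a share of the region, the *Hbq1a* window was contacted less in D3839, a direction that turned with all chromosome 11 ends as denominator. The measure is the end share, the percentage of all reporter ends in the region that lay in a window, per kb. In the *Hbq1b* window it was 1.04, 1.04 and 0.905% per kb in the WT replicates and 1.01, 0.905 and 0.907% in D3839. The groups overlapped, with means of 0.995 ± 0.0774 and 0.940 ± 0.0599 (SD, n = 3; exact permutation test, p = 0.3). In the *Hbq1a* window the values were 1.00, 0.957 and 1.29% in WT and 0.840, 0.892 and 0.902% in D3839. Every D3839 sample lay below every WT sample, with means of 1.09 ± 0.182 and 0.878 ± 0.0334 (exact permutation test, p = 0.1, the smallest possible).

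**Figure D1:**
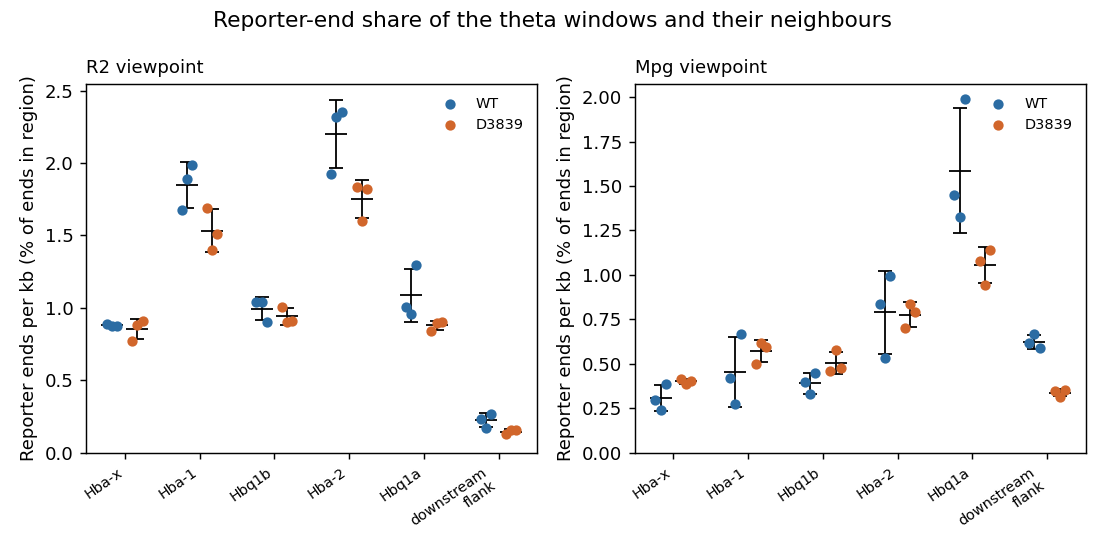
Reporter ends per kb, as a percentage of all ends in the region (vertical axis), in the theta windows and neighbouring segments, for the R2 (left) and *Mpg* (right) viewpoints, with Hba-1 and Hba-2 for the segments of *Hba-a1* and *Hba-a2*. Points are replicates of WT (blue) and D3839 (orange), bars are mean ± SD (n = 3); for *Mpg*, the *Hbq1a* points lie between 0.943 and 1.99, above all *Hbq1b* points, which lie between 0.328 and 0.577.

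From the *Mpg* promoter, 60.1 and 73.2 kb away, the windows differed between genotypes in opposite directions. The nearer *Hbq1b* window had end shares of 0.396, 0.328 and 0.445% per kb in WT and 0.459, 0.577 and 0.478% in D3839, so that every D3839 sample lay above every WT sample (0.390 ± 0.0587 against 0.505 ± 0.0634, exact permutation test, p = 0.1). The farther *Hbq1a* window had 1.45, 1.32 and 1.99% in WT and 1.08, 0.943 and 1.14% in D3839, so that every D3839 sample lay below (1.59 ± 0.353 against 1.05 ± 0.101, p = 0.1, exact permutation test). The *Hbq1a* window ranked 2nd of 15 segments in WT and 3rd in D3839 by end share for *Mpg*, while the *Hbq1b* window ranked 9th and 8th. Per NlaIII fragment the *Hbq1a* window ranked 4th in WT and 8th in D3839, and the *Hbq1b* window 9th and 7th.

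The fit across all 15 segments used edgeR's quasi-likelihood test on the contacts touching each segment, adjusted by Benjamini-Hochberg. For R2, contacts touching the *Hbq1a* window were 7.52, 7.59 and 9.12% of the matrix in WT and 6.43, 6.69 and 6.60% in D3839. The difference was -0.30 on the log2 scale (SE 0.0916, edgeR adjusted p = 0.0246), while that of the *Hbq1b* window was -0.04 (adjusted p = 0.752). For *Mpg*, contacts touching the *Hbq1a* window were 9.72, 8.45 and 12.3% in WT and 7.18, 7.05 and 7.54% in D3839, a difference of -0.48 (SE 0.136, edgeR adjusted p = 0.00419). Those touching the *Hbq1b* window were 5.39, 4.56 and 5.80% in WT and 6.28, 8.26 and 6.30% in D3839, a difference of 0.40 (SE 0.163, edgeR adjusted p = 0.0316). Over all 15 segments the test called 20% higher and 40.0% lower in D3839 for R2, and 46.7% higher and 33.3% lower for *Mpg*, and end shares did not overlap in 60% and 80.0% of segments, so a called window is not set apart from the rest of the region. The *Mpg* call of *Hbq1a* held without each replicate in turn. The R2 call of *Hbq1a* was lost without WT replicate 3 (edgeR adjusted p = 0.0564) and without D3839 replicate 1, 2 or 3 (0.0889, 0.0623 and 0.0679). The *Mpg* call of *Hbq1b* was lost without WT replicate 1 or 2 (0.0747 and 0.0660) and without D3839 replicate 2 or 3 (0.222 and 0.0545), and also with TMM scaling (0.22 on the log2 scale, edgeR adjusted p = 0.219) and in DESeq2 (0.17, adjusted p = 0.263). With all chromosome 11 contacts as library size, which raises D3839 throughout, the *Hbq1a* differences were 0.16 for R2 (edgeR adjusted p = 0.202) and -0.023 for *Mpg* (adjusted p = 0.967), so these calls hold relative to the region only. The *Hbq1b* window from R2, not called relative to the region, was then called higher in D3839 (0.43, edgeR adjusted p = 0.00336).

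At 1 kb resolution the highest R2 bin of the *Hbq1b* window was chr11:32189001-32190000, past the gene, with a mean over the 6 samples of 1.66% of ends. The gene body bin, chr11:32187001-32188000, followed with 1.56%. In D3839 alone the highest was chr11:32185001-32186000, before the gene, with 1.62% against 1.44% in chr11:32189001-32190000. The lowest over the 6 samples was chr11:32192001-32193000 with 0.167%, in a stretch with a single NlaIII fragment in the data. In the *Hbq1a* window the highest R2 bin was chr11:32200001-32201000, which holds the gene, with 1.38%, although in WT alone the repeat bin chr11:32201001-32202000 had 1.64% against its 1.60%, and the lowest was chr11:32198001-32199000 with 0.643%. For *Mpg* the highest bins were chr11:32189001-32190000 with 0.958% in the *Hbq1b* window and chr11:32201001-32202000, in the repeat past the gene, with 2.63% in the *Hbq1a* window. The lowest were chr11:32192001-32193000 with 0.0807% and chr11:32198001-32199000 with 0.351%. The promoter bin of *Hbq1b*, chr11:32186001-32187000, had 1.27% for R2 and 0.472% for *Mpg*, and that of *Hbq1a*, chr11:32199001-32200000, had 0.782% and 0.437%.

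**Figure D2:**
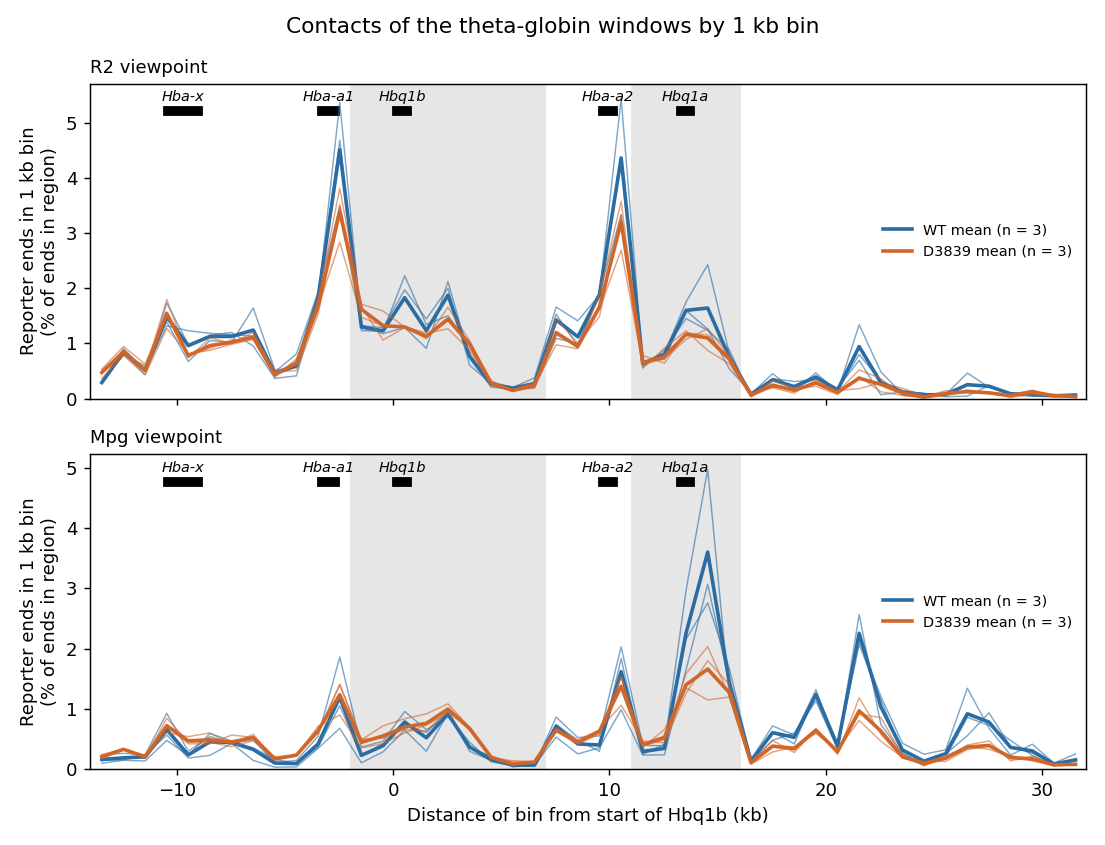
Reporter ends in each 1 kb bin, as a percentage of all ends in the region (vertical axis), by distance from the start of *Hbq1b* (horizontal axis, kb), for the R2 (top) and *Mpg* (bottom) viewpoints. Thin lines are replicates and thick lines means of WT (blue) and D3839 (orange), grey bands are the theta windows, and black boxes are genes. For *Mpg*, the tallest bins of the *Hbq1a* window reach means of 2.26 and 3.60% in WT against 1.40 and 1.66% in D3839.

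In the fit over all bins, no bin of either window was called for R2, where edgeR's test called 4.60% of 174 bins higher in D3839 and 0.575% lower. At an unadjusted p under 0.05, 1 of the 14 window bins was higher and 3 were lower, and with DESeq2 no window bin was called either. Without WT replicate 3, the gene body bin of *Hbq1b* was called lower (edgeR adjusted p = 0.0160). For *Mpg*, where 19.9% of 176 bins were called higher and 14.8% lower, 3 of 9 bins of the *Hbq1b* window were higher in D3839 and 2 of 5 bins of the *Hbq1a* window were lower. Of the 2 lower bins, the larger difference was in the repeat bin chr11:32201001-32202000, with 2.76, 3.07 and 4.97% of ends in WT and 1.80, 1.15 and 2.03% in D3839. No sample of one group reached the other, as in 20.9% of all bins that lay below for D3839 and 20.3% that lay above, and the difference was -1.0 on the log2 scale (SE 0.158, edgeR adjusted p = 6.308e-06). The gene bin of *Hbq1a*, chr11:32200001-32201000, had 2.16, 1.65 and 2.97% in WT against 1.26, 1.35 and 1.58% in D3839, a difference of -0.66 (SE 0.162, edgeR adjusted p = 0.00323). Both calls held without each replicate in turn, and were lost with all chromosome 11 contacts as library size (edgeR adjusted p = 0.468 for the gene bin and 0.0878 for the repeat bin).

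The bins called higher in the *Hbq1b* window were 3 without near-identical fragments, on either side of the gene. The bin chr11:32185001-32186000, between *Hba-a1* and *Hbq1b*, had 0.217, 0.107 and 0.368% of ends in WT and 0.353, 0.488 and 0.499% in D3839, where WT replicate 3 lay above D3839 replicate 1. Contacts touching it differed by 1.03 on the log2 scale (SE 0.313, edgeR adjusted p = 0.0125). Past the gene, chr11:32190001-32191000 had 0.297, 0.361 and 0.448% in WT and 0.689, 0.694 and 0.649% in D3839, without overlap, a difference of 0.82 (SE 0.259, edgeR adjusted p = 0.0152). The third, chr11:32188001-32189000, differed by 0.66 (SE 0.255, edgeR adjusted p = 0.0387) but its end shares overlapped, with 0.298 to 0.657% in WT and 0.632 to 0.917% in D3839. These calls were less stable, since 1 of the 3 passed without WT replicate 1, without WT replicate 2, without D3839 replicate 1 and without D3839 replicate 3, and 0 passed without D3839 replicate 2. Without WT replicate 3 there were 4 higher bins in the *Hbq1b* window and 2 in the *Hbq1a* window. The gene body bin of *Hbq1b* had 0.739, 0.650 and 0.957% in WT and 0.602, 0.838 and 0.660% in D3839, and was not called. Of its 5 fragments 3 are near-identical to *Hbq1a*, as are 2 of 3 in the promoter bin. Without near-identical fragments, and as a share of the ends left, the mean for *Mpg* was 0.0911% in WT and 0.168% in D3839 in the gene body bin, and 0.0599% and 0.141% in the promoter bin, with no test made. For R2 the gene bin of *Hbq1a* had 1.60 ± 0.151% in WT and 1.16 ± 0.0815% in D3839 without overlap and was not called, where 7.91% of all R2 bins lay below in D3839 without overlap and 12.4% above.

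Setting the viewpoints against each other separated the 2 theta windows. Both viewpoints were captured from the same libraries, and the ratio of one to the other in the same window is the same per kb and per fragment. R2 contacted the *Hbq1b* window more than *Mpg* did, with R2 over *Mpg* ratios of 2.62, 3.17 and 2.03 in WT and 2.20, 1.57 and 1.90 in D3839. All 6 ratios exceeded 1, with a mean of 2.19-fold (1.13 ± 0.357 on the log2 scale, SD; exact sign-flip test over 6 samples, p = 0.03125, the smallest possible). For the *Hbq1a* window the ratios were 0.693, 0.724 and 0.651 in WT and 0.781, 0.945 and 0.790 in D3839, all below 1, with a mean of 0.759-fold (-0.40 ± 0.188 on the log2 scale; exact sign-flip test, p = 0.03125). Benjamini-Hochberg adjustment over these 2 tests leaves both p values as they are. Each of the 15 segments gave this same smallest p, with all 6 ratios on one side of 1. Passing thus does not set the theta windows apart from the rest of the region. Without near-identical fragments D3839 replicate 2 had a ratio of 1.09 in the *Hbq1a* window, and with 5 of 6 samples below 1 the call was lost (exact sign-flip test, p = 0.0625). Without the bin of the tandem repeat the ratio was 0.897-fold (-0.16 on the log2 scale), below 1 in 6 of 6 samples. The call was lost without same-bin pairs (-0.14, exact sign-flip test, p = 0.09375) and with 3 bins left out on each side of the viewpoints (-0.30, exact sign-flip test, p = 0.0625). It was also lost with all chromosome 11 ends as denominator, where 2 of 6 ratios lay above 1 (0.961-fold, exact sign-flip test, p = 0.5625), while those of *Hbq1b* stayed above 1 in 6 of 6 samples (2.77-fold). Genotype did not separate the ratios of *Hbq1b* (exact permutation test, p = 0.2), except without near-identical fragments, where every D3839 ratio lay below every WT ratio (1.95-fold against 2.89-fold, exact permutation test, p = 0.1). For *Hbq1a* the D3839 ratios all lay above the WT ratios (p = 0.1, exact permutation test, the smallest possible). Most segments separated by genotype in one direction or the other. The exceptions were *Hbq1b*, *Hba-x*, the *Hba-a1* and *Hba-a2* segments, the downstream flank and the far downstream segment. The separation of *Hbq1a* was lost without the bin of the tandem repeat (exact permutation test, p = 0.7), and without near-identical fragments or with all chromosome 11 ends (p = 0.3 each, exact permutation test).

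At 1 kb resolution and with shares of the region, the sign changed at the bin that holds the start of *Hbq1a*. In WT, *Mpg* over R2 was below 1 in all 15 bins from the start of the *Hbq1b* window to the bin before the *Hbq1a* start, with a median of 0.423 and a range of 0.178 to 0.615. It was above 1 in all 18 bins from the one with the *Hbq1a* start to the end of the downstream flank, with a median of 2.46 and a range of 1.41 to 4.36. In D3839 the same 15 bins ranged from 0.276 to 0.709 and the same 18 bins from 1.20 to 3.77. These are ratios of group means, and in the repeat bin chr11:32201001-32202000 the lowest D3839 sample was at 0.906, with 5 of 6 samples above 1. Between the last bin before the gene start and the first one with it, the ratio went from 0.431 to 1.41 in WT and from 0.695 to 1.20 in D3839, a step of 3.28-fold and 1.73-fold. The side of 1 depends on the denominator. With all chromosome 11 ends, 18 of 18 bins from that of the gene start on stayed above 1 in WT. In D3839 17 of 18 did, with the first at 0.956, so the sign changed 1 bin later. The steps between the same bins were then 3.30-fold in WT and 1.74-fold in D3839. Within the bin of the gene start, the values changed from fragment to fragment. Over the 6 samples chr11:32199930-32200388, which spans the start, had 353 R2 and 336 *Mpg* ends. The next fragments along the gene had 462 and 387, then 370 and 500, then 102 and 290 at chr11:32200691-32200717. All but the last are near-identical to *Hbq1b*, so where in the bin the sign changed is not resolved. The position was noticed in these values, so no test is given for it.

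**Figure D3:**
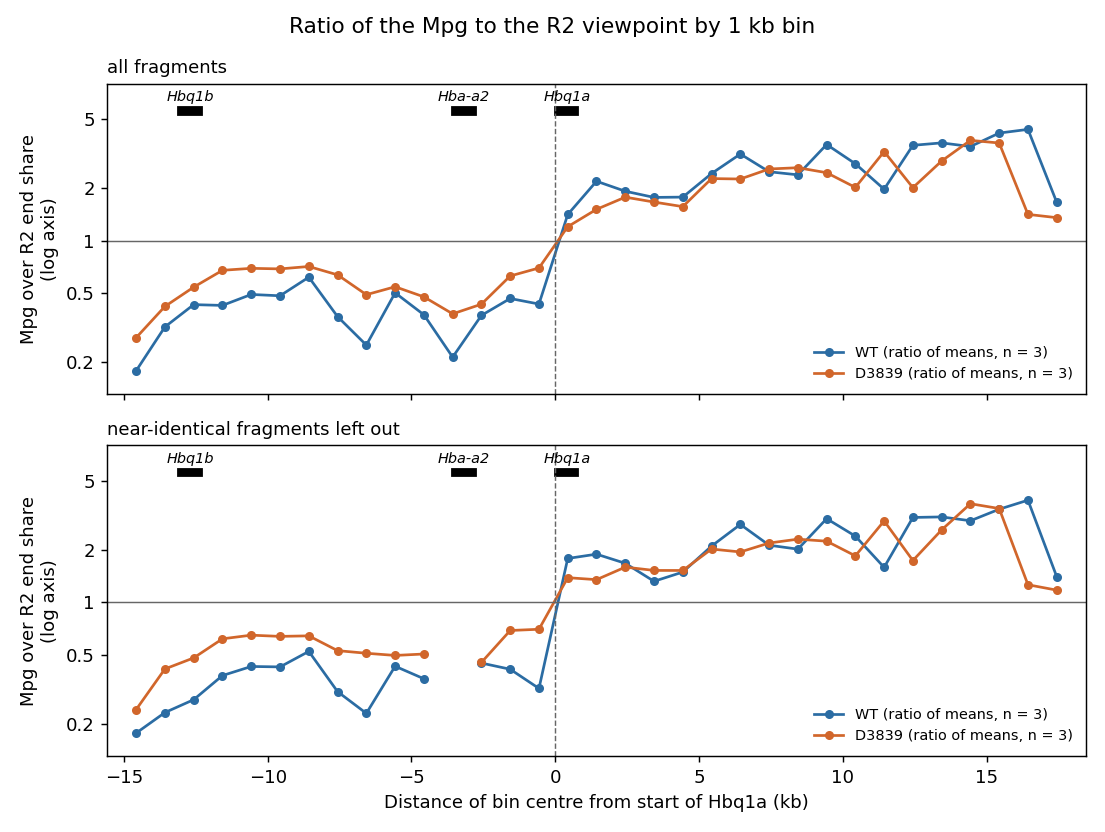
Ratio of the *Mpg* to the R2 end share in each 1 kb bin (vertical log axis, ratio of group means, n = 3 each), by distance from the start of *Hbq1a* (horizontal axis, kb), with all fragments (top) and without near-identical fragments (bottom). WT is blue and D3839 orange, the dashed line marks the gene start, black boxes are genes. With these shares of the region, ratios lie below 1 left of the line and above 1 right of it in both groups, and a gap marks a bin with no fragment left.

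The step was also computed without near-identical fragments. These are 2 of the 3 fragments in the bin before the gene start and 4 of 10 in the bin with it. Without near-identical fragments, 14 of 14 bins with contacts before the gene start were below 1 and 18 of 18 from the gene start on were above 1, in WT and in D3839. The ratio then stepped from 0.319 to 1.79 in WT and from 0.700 to 1.39 in D3839. The fragments left in the bin with the gene start begin at chr11:32200691, inside the gene, so this filter cannot place the step at the start itself.

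A split of the *Hbq1a* window at the bin of the gene start, made after these values were seen, showed opposite differences between genotypes within the window for *Mpg*. Before that bin, end shares were 0.331, 0.237 and 0.393% per kb in WT and 0.454, 0.511 and 0.438% in D3839, so D3839 was higher in every sample, by 1.46-fold in the means. From that bin on they were 2.20, 2.05 and 3.05% in WT and 1.49, 1.23 and 1.61% in D3839, so D3839 was lower in every sample, at 0.594-fold. For R2 the part before the gene start overlapped between groups, with 0.719 ± 0.0202% in WT and 0.706 ± 0.0311% in D3839. The part from the gene start on was 1.33 ± 0.293% in WT and 0.993 ± 0.0709% in D3839, and D3839 was lower in every sample by this share of the region. With all chromosome 11 ends as denominator, the R2 means of its successive bins were 0.754, 0.777 and 0.3525% in WT. They were 0.755, 0.708 and 0.462% in D3839, so D3839 was not lower in every bin. The *Mpg* means of these bins were then 0.854, 1.36 and 0.528% in WT and 0.722, 0.862 and 0.657% in D3839. For *Mpg*, the bins before the start of *Hbq1a* thus differed in the same direction as the *Hbq1b* window.

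Within a sample, the levels of the windows were compared with each other and with their neighbours, in 10 comparisons adjusted by Benjamini-Hochberg. For R2 the *Hbq1a* and *Hbq1b* windows did not differ per kb, with *Hbq1a* over *Hbq1b* ratios from 0.832 to 1.43, higher in 1 of 6 samples (exact sign-flip test, p = 1). For *Mpg* the ratios were 3.66, 4.03 and 4.46 in WT and 2.34, 1.63 and 2.39 in D3839. *Hbq1a* was higher in 6 of 6 samples, by 2.91-fold (1.54 ± 0.562 on the log2 scale; exact sign-flip test, p = 0.03125, adjusted p = 0.0391). Every WT ratio lay above every D3839 ratio, 4.04-fold against 2.09-fold in the means (exact permutation test, p = 0.1).

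The size of the ratio depends on the unit. Counting per NlaIII fragment in place of per kb multiplies every *Hbq1a* over *Hbq1b* ratio by the same constant, whatever the viewpoint. Counted so, the *Mpg* ratio of *Hbq1a* over *Hbq1b* was 1.92-fold in WT and 0.996-fold in D3839, and no longer passed over the 6 samples (1.38-fold, exact sign-flip test, p = 0.156). For R2 the ratio per fragment was 0.479-fold, below 1 in 6 of 6 samples (exact sign-flip test, p = 0.03125). Without the bin of the tandem repeat, an alternative added after the data had been seen, the *Mpg* ratio was 2.11-fold (2.61 in WT and 1.70 in D3839). Without near-identical fragments it was 3.54-fold (5.30 in WT and 2.36 in D3839). The order of the windows under R2 thus depends on the denominator, while under *Mpg* in WT the *Hbq1a* window was higher in every one of these settings. It was not higher when taken only before the bin of the gene start, where the WT mean for *Mpg* was 0.320% per kb against 0.390% in the *Hbq1b* window.

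Against the adult α-globin genes, whose products are the α chains of haemoglobin, the theta windows were less contacted by R2. The R2 end share of the *Hbq1b* window was 0.575-fold that of the *Hba-a1* segment and 0.493-fold that of the *Hba-a2* segment, lower in 6 of 6 samples each (exact sign-flip test, p = 0.03125, adjusted p = 0.0391). The *Hbq1a* window was at 0.496-fold of *Hba-a2* for R2, but at 1.67-fold for *Mpg*, higher in 6 of 6 samples (exact sign-flip test, adjusted p = 0.0391). For *Mpg* the *Hbq1b* window was at 0.574-fold of *Hba-a2* in 6 of 6 samples (exact sign-flip test, adjusted p = 0.0391), while against *Hba-a1* its ratio was 0.897-fold and did not pass (adjusted p = 0.278, exact sign-flip test). Per NlaIII fragment the *Mpg* ratio of *Hbq1a* over *Hba-a2* was 1.02-fold, higher in 3 of 6 samples, and did not pass (exact sign-flip test, adjusted p = 0.875). The 2 adult genes are themselves near-identical, with 9 such fragments in each segment. Without near-identical fragments *Hbq1a* over *Hba-a2* for R2 was 0.817-fold, higher in 1 of 6 samples, and *Hbq1b* over *Hba-a2* for *Mpg* was 0.724-fold, and both calls were lost (exact sign-flip test, adjusted p = 0.104 and 0.0781). *Hbq1b* over *Hba-a2* for R2 was then 0.766-fold, below 1 in 6 of 6 samples (exact sign-flip test, adjusted p = 0.0446). Under the same filter the *Hbq1b* over *Hba-a1* comparison turned round in both viewpoints, to 0.85 on the log2 scale for R2 and 1.72 for *Mpg*. This filter removes 9 of 14 fragments of the *Hba-a1* segment and 5 of the 42 with contacts in the *Hbq1b* window, and levels were then taken per kb of the bases left, so the *Hba-a1* value rests on 5 fragments.

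Beyond *Hbq1a* the contacts dropped. The *Hbq1a* window exceeded the 15 kb flank that follows it by 5.46-fold for R2 and 2.80-fold for *Mpg*, in 6 of 6 samples each (exact sign-flip test, adjusted p = 0.0391). Per NlaIII fragment the excess was 3.31-fold and 1.70-fold, again in 6 of 6 samples. The flank itself was lower in D3839 than in WT, 0.144 ± 0.0169 against 0.224 ± 0.0496% per kb for R2 and 0.337 ± 0.0209 against 0.623 ± 0.0405% for *Mpg*, without overlap. For *Mpg* the *Hbq1a* window shared the direction of the flank and the *Hbq1b* window did not, while for R2 the *Hbq1b* window overlapped between groups.

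The partner share says where the other reporter of a theta contact lay, as a percentage of the ends in the window. For R2, the *Hbq1b* window held its own partner in 53.3% ± 3.05 of WT ends. Its largest partners outside were, in the order of WT, the *Hbq1a* window, the R2 and R3 enhancers, the R1 enhancer with HS-29, and the Rm and R4 enhancers. In D3839 R1 with HS-29 came first at 8.995% ± 1.83. The *Hbq1a* window took 11.3% ± 0.586 in WT and 7.98% ± 1.18 in D3839. Neither share overlapped between groups, as was so for 25.0% of the 28 R2 partner shares. In WT the enhancer segments took 7.29% ± 1.75, 6.76% ± 0.986 and 4.99% ± 1.10. The *Hbq1a* window, with the *Hbq1b* window first, had the same 2 enhancer segments next, at 5.01% ± 1.89 for R2 and R3 and 5.05% ± 2.53 for R1 and HS-29, and then the *Hba-a2* segment at 4.15% ± 0.968. The segments differ in width, and the bins around the viewpoint, left out here, reduce that of R2 and R3 to 8 kb. Per kb of partner, the mean WT share of *Hbq1b* was 1.13% for R1 and HS-29, 1.09% for *Hba-a2*, 0.911% for R2 and R3 and 0.878% for *Hba-a1*, and that of *Hbq1a* was 1.04% for *Hba-a2*, 0.842% for R1 and HS-29 and 0.627% for R2 and R3. The shares of the theta windows in each other include fragments that the 2 genes share.

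For *Mpg*, the *Hbq1b* window met the *Mpg* segment in 9.12, 10.6 and 5.44% of WT ends and in 11.3, 10.8 and 11.4% of D3839 ends. Its share with the *Hbq1a* window was larger than this in each WT sample and smaller in each D3839 sample, with means of 14.3% and 9.67%. It met the segment of *Snrnp25* and *Rhbdf1*, a spliceosomal protein gene and a rhomboid-like gene upstream of *Mpg*, in 5.74% ± 0.589 in WT and 7.22% ± 0.929 in D3839. It met HS-38 and HS-39, the sites deleted in D3839, in 2.69% ± 0.398 in WT and 4.22% ± 0.683 in D3839. The *Hbq1a* window held its own partner in 71.6% ± 5.47 of WT ends and 61.6% ± 9.65 of D3839 ends, against 49.9% ± 4.83 and 47.5% ± 6.34 for *Hbq1b*. Its finer NlaIII fragments were not corrected for here. Outside itself it met *Hbq1b*, the downstream flank, *Mpg*, and *Snrnp25* and *Rhbdf1* most, in the order of WT. In D3839 the flank, at 4.88%, came after *Mpg* (6.89%) and *Snrnp25* and *Rhbdf1* (5.14%).

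**Figure D4:**
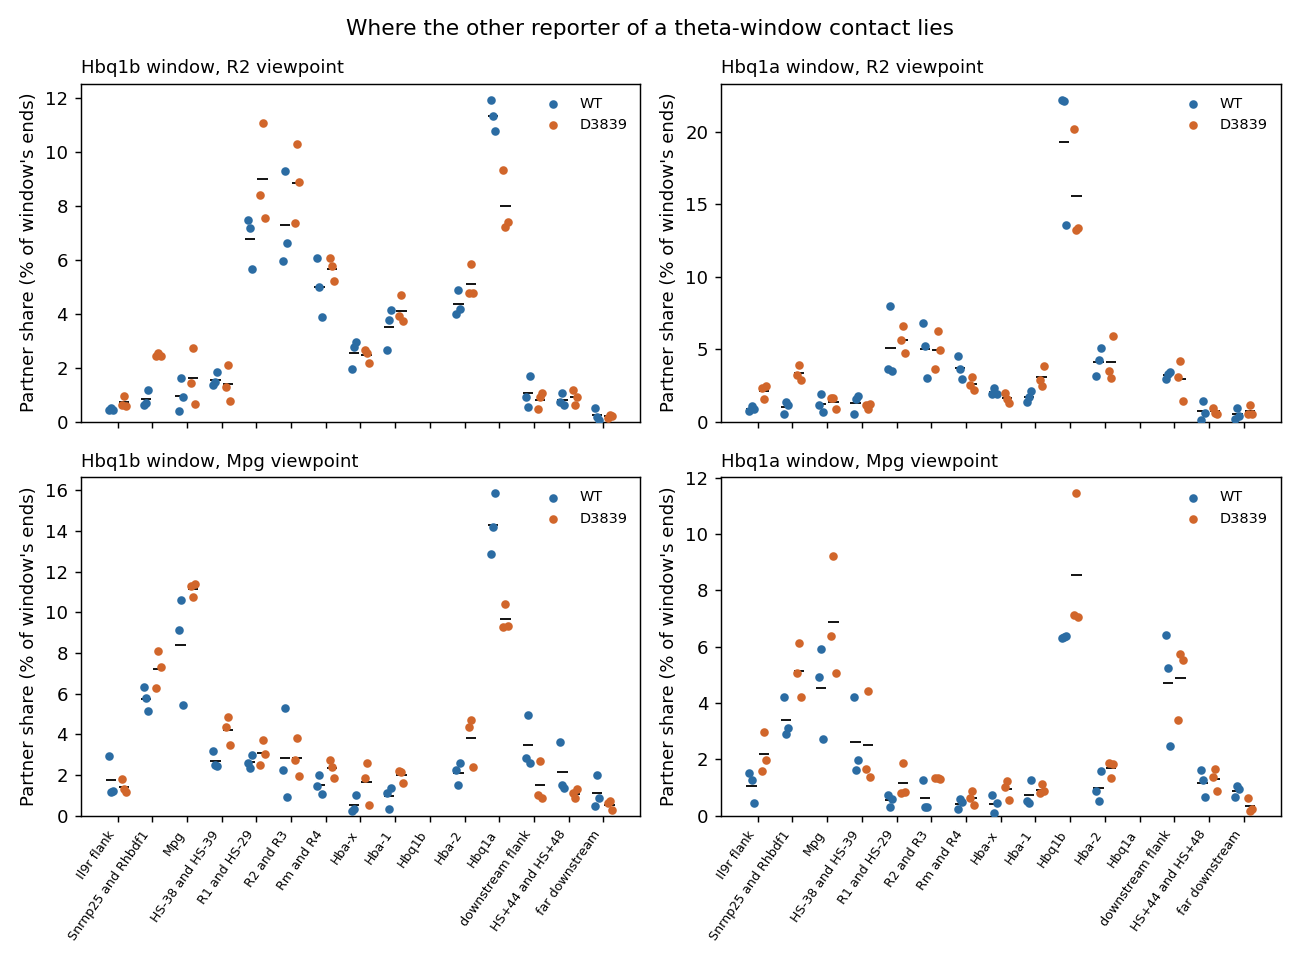
Partner share, the percentage of a window's reporter ends whose other reporter lies in each of the other segments (horizontal axis), for the *Hbq1b* (left) and *Hbq1a* (right) windows and the R2 (top) and *Mpg* (bottom) viewpoints. Points are replicates of WT (blue) and D3839 (orange) and black lines are means of n = 3; for R2, the *Snrnp25* and *Rhbdf1* share of *Hbq1b* is 0.828 in WT and 2.47 in D3839.

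The partners of the 2 windows were compared within samples, in a design too small to pass adjustment unless 17 of the 26 comparisons reached the smallest possible p, which 7 did. Among partners outside both windows, the downstream flank took 6.48% ± 3.92 for *Hbq1b* and 18.7% ± 5.09 for *Hbq1a* from *Mpg*, and 2.48% ± 1.39 against 9.56% ± 2.87 from R2 (SD, n = 6), higher for *Hbq1a* in 6 of 6 samples each. The segment of Rm and R4 took 4.80% ± 0.988 for *Hbq1b* and 2.09% ± 0.772 for *Hbq1a* from *Mpg*, and 13.7% ± 2.63 and 9.91% ± 3.47 from R2, lower for *Hbq1a* in 6 of 6 samples each. R1 with HS-29 took 7.41% ± 1.71 for *Hbq1b* and 3.10% ± 1.16 for *Hbq1a* from *Mpg*, also lower for *Hbq1a* in 6 of 6. Far upstream segments were also higher for *Hbq1a* from R2 in 6 of 6 samples, the *Il9r* flank with 4.58% ± 2.11 against 1.46% ± 0.246 and *Snrnp25* and *Rhbdf1* with 6.48% ± 3.70 against 4.07% ± 2.00. Each of these 7 gave p = 0.03125 in the exact sign-flip test (adjusted p = 0.116). The flank adjoins the *Hbq1a* window and lies 9 kb past the *Hbq1b* window, and distance was not corrected for.

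From R2, the whole segment of *Snrnp25* and *Rhbdf1* was contacted more in D3839, with 0.147 ± 0.0199% of ends per kb in WT and 0.244 ± 0.00527% in D3839 without overlap (1.66-fold), and its pairs with the theta windows were among those that rose. Counts of all pairs of segments were fitted with edgeR, which called 8.40% of 119 pairs higher in D3839 and 1.68% lower for R2. For R2, 2 of the 29 pairs with a theta window were called, both higher in D3839 and both with *Snrnp25* and *Rhbdf1*. With *Hbq1b* there were 11, 11 and 25 contacts in WT and 71, 61 and 64 in D3839, or 0.116, 0.127 and 0.193% of the matrix against 0.441, 0.417 and 0.397%. The difference was 1.49 on the log2 scale (SE 0.401, edgeR adjusted p = 0.00898). With *Hbq1a* there were 5, 11 and 19 contacts in WT and 44, 51 and 42 in D3839, a difference of 1.40 (SE 0.444, edgeR adjusted p = 0.0247). No WT sample reached a D3839 sample in either pair. The first call was lost without WT replicate 3 (edgeR adjusted p = 0.0532), D3839 replicate 1 (0.0726) or D3839 replicate 3 (0.0535), and the second without any 1 of the 6 samples (0.0557 to 0.136), while the log2 difference stayed at 1.09 or above.

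Shares within the windows, taken apart from the total, gave the same direction for these pairs. The *Snrnp25* and *Rhbdf1* share of the ends of *Hbq1b* was 0.828% ± 0.310 in WT and 2.47% ± 0.0760 in D3839, and that of *Hbq1a* was 0.995% ± 0.420 and 3.35% ± 0.518 (exact permutation test, p = 0.1 each). Of the 28 partner shares of the windows for R2, 25.0% did not overlap between groups. For *Mpg*, 39.3% of 28 did not.

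For *Mpg*, where edgeR called 10% of 120 pairs higher and 9.17% lower, 4 of the 29 theta pairs were called, 2 higher and 2 lower in D3839. Contacts of the *Hbq1b* window with the *Mpg* segment, the gene's own surroundings, numbered 81, 64 and 71 in WT and 177, 203 and 177 in D3839, which is 0.570% ± 0.117 against 1.01% ± 0.0958 of the matrix. The difference was 0.83 on the log2 scale (SE 0.285, edgeR adjusted p = 0.0463). It was lost without WT replicate 1 or 3 (edgeR adjusted p = 0.0805 and 0.0588) and without D3839 replicate 1, 2 or 3 (0.113, 0.139 and 0.0893). Contacts of *Hbq1b* with *Hba-x*, the embryonic α-like globin gene, numbered 2, 2 and 13 in WT and 29, 49 and 8 in D3839, with overlapping shares (difference 1.90, SE 0.668, edgeR adjusted p = 0.0467). That call was lost without WT replicate 1 or 2 (edgeR adjusted p = 0.215 and 0.0556) and without D3839 replicate 1 or 2 (0.0689 and 0.254). With 1 replicate left out, its difference ranged from 1.25 to 3.09. With TMM scaling neither pair passed (edgeR adjusted p = 0.112 for the *Mpg* segment and 0.0897 for *Hba-x*), nor in DESeq2 (adjusted p = 0.166 and 0.126).

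The pairs that fell both involved the *Hbq1a* window. Contacts with both ends inside it numbered 594, 489 and 1242 in WT and 676, 432 and 699 in D3839, or 5.72% ± 1.65 against 3.27% ± 0.789 of the matrix, without overlap (difference -0.81, SE 0.196, edgeR adjusted p = 0.0057). This call held without each replicate in turn, and was lost with all chromosome 11 contacts as library size (-0.35, edgeR adjusted p = 0.295). Of all *Mpg* contacts touching the window, 36.1% ± 3.69 in WT and 29.1% ± 6.55 in D3839 joined fragments that adjoin on the chromosome. The pair fit was not run without adjacent fragments, so their part in this difference was not tested. Contacts of *Hbq1a* with the far downstream segment, which reaches the start of *Sh3pxd2b*, numbered 12, 14 and 30 in WT and 13, 3 and 5 in D3839 (difference -1.87, SE 0.591, edgeR adjusted p = 0.0332). That call was lost without WT replicate 1 (edgeR adjusted p = 0.0633), D3839 replicate 2 (0.125) or D3839 replicate 3 (0.0893), and with all chromosome 11 contacts (0.0787).

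Contacts that join *Hbq1b* and *Hbq1a* on the same allele as the viewpoint were frequent, but most lay on fragments the genes share. For R2 there were 212, 183 and 227 such contacts in WT and 273, 172 and 194 in D3839, which is 2.23, 2.12 and 1.75% of the matrix against 1.70, 1.18 and 1.20%. Every D3839 sample lay below every WT sample (2.03 ± 0.249 against 1.36 ± 0.292%, exact permutation test, p = 0.1), and the edgeR difference of -0.58 did not pass (SE 0.207, adjusted p = 0.0538). The groups overlapped with 3 bins left out on each side of the viewpoint, in narrowed windows and without near-identical fragments (exact permutation test, p = 0.2 each). Over 11 other settings the edgeR difference ranged from -0.77 to -0.11 (edgeR adjusted p from 0.0196 to 0.810). Relative to the other bin pairs at that separation, the WT ratios were 5.19, 5.13 and 4.08 and the D3839 ratios 3.80, 2.56 and 3.09. These other pairs come from the whole region, also from segments with few ends. In WT the *Il9r* flank held 0.0541% of R2 ends per kb, against 0.995% in the *Hbq1b* window. The ratio does not correct for such levels, so a value above 1 is not a measure of preference between the windows. For *Mpg* there were 86 to 207 contacts in WT and 145 to 196 in D3839, with ratios of 4.34 ± 1.16 and 2.70 ± 0.244. All 12 ratios exceeded 1. With each fragment pair counted once they also did, with lower means of 3.24 in WT and 1.97 in D3839 for R2, and 2.39 and 1.65 for *Mpg*. With all fragments, R1 with HS-29 had higher R2 ratios, at 8.69 in WT and 10.9 in D3839 with *Hbq1b*, and 12.4 and 10.8 with *Hbq1a*. For *Mpg* its ratios were lower than those of the joining contacts, at 2.06 and 2.54 with *Hbq1b* and 1.85 and 1.88 with *Hbq1a*.

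**Figure D5:**
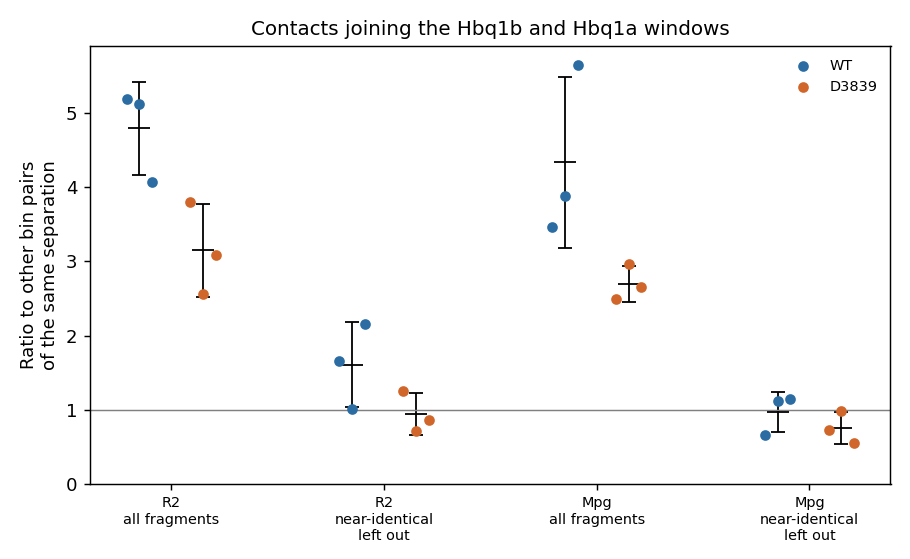
Contacts joining the *Hbq1b* and *Hbq1a* windows, as a ratio to the mean of the remaining pairs of 1 kb bins at equal separation (vertical axis), by viewpoint, with all fragments and without near-identical fragments. Points are replicates of WT (blue) and D3839 (orange), bars are mean ± SD (n = 3), and the grey line marks 1; the R2 means fall from 4.80 and 3.15 to 1.61 and 0.939 when near-identical fragments are left out.

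Of the joining contacts, 82.7% ± 6.88 in WT and 81.5% ± 1.39 in D3839 had at least 1 end on a near-identical fragment for R2, and 58.7% ± 2.92 and 55.6% ± 4.82 had both. Without such fragments 18 to 53 joining contacts per WT sample and 32 to 54 per D3839 sample remained for R2. Their ratios were 1.66, 1.01 and 2.15 in WT and 1.25, 0.706 and 0.862 in D3839, above 1 in 4 of 6 samples. For *Mpg* they were 0.654, 1.11 and 1.14 in WT and 0.730, 0.979 and 0.556 in D3839, above 1 in 2 of 6 samples. A contact between the theta genes and a read placed on the wrong copy cannot be told apart on identical fragments. The ratios with all fragments thus describe the pair of windows only as the contacts were assigned. The same filter on the *Hba-a1* and *Hba-a2* segments, whose ratio for R2 in WT was 48.5 ± 12.2, left 1.72 ± 0.782.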

How the data were processed

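R2 and *Mpg* were captured from Tri-C libraries of 3 WT and 3 D3839 samples of Ter-119+ cells. The deposited values are counts of contacts between NlaIII fragments (mm9), not normalized. Per the labels and the study's methods, the authors made these counts with Trim Galore, Bowtie and the CCseqBasic pipeline (versions not given in the sources used here), removing PCR duplicates and fragments that other capture oligonucleotides target, and counting reads that held 2 reporters or more.

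All 893 fragments in the region matched the NlaIII digest of mm9. Contacts were summed in 1 kb bins and 15 segments set by gene and element positions. Fragments were called near-identical at 95% identity over 90% of their length (blastn 2.17.0+). Features with a total count of at least 10 were tested with edgeR 4.0.16 (R 4.3.3), genotype only, library sizes equal to matrix contacts, Benjamini-Hochberg adjustment within each viewpoint and kind of feature, threshold 0.05. DESeq2 1.42.0 was an alternative. Exact permutation and sign-flip tests used Python 3.11.15 and were two-sided. The edgeR steps were tested on simulated data, with changes larger than those of the theta windows, bins and pairs called here, so that test does not cover differences of their size. Described in every case were the windows and their gene and promoter bins, the highest and lowest bin, the 4 largest partners, and every bin or pair past the threshold. The genes, segments and rules were chosen with earlier results of these data known. Replicates are labelled biological and differed by more than sampling noise.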

Additional observations from a re-analysis of the deposited data

Results flagged for a closer look

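From the *Mpg* viewpoint the end share of the *Hbq1b* window was higher in every D3839 sample than in every WT sample, with a log2 ratio of group means of 0.37. The end share of the *Hbq1a* window was lower in every D3839 sample, with a log2 ratio of -0.59. The windows are drawn to attention because all samples moved in opposite directions, and the difference between the 2 ratios was not tested apart from the ratio of *Hbq1a* to *Hbq1b* given above, which cannot go below p = 0.1 in an exact permutation test of 3 against 3. The number of matrix contacts per sample and the library preparation kit also differed between the groups, and their part cannot be told apart from that of genotype. With all chromosome 11 ends as denominator the log2 ratios were 0.83 and -0.13, and the *Hbq1a* groups were not separated (exact permutation test, p = 0.9).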

How the results depend on the processing

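Values are log2 unless they are counts, and the cause of a change was not tested unless stated. With all chromosome 11 contacts as denominator the median segment shifted by 0.46 for R2 and 0.49 for *Mpg*. Then D3839 minus WT was 0.38 for the R2 end share of *Hbq1b* and 0.15 for that of *Hbq1a*, and by edgeR 0.43, 0.16 and, for *Hbq1a* from *Mpg*, -0.023. Of these edgeR differences, that of *Hbq1b* from R2 became a call (edgeR adjusted p = 0.00336). R2 over *Mpg* was -0.058 in *Hbq1a*, no longer a call (exact sign-flip test, p = 0.5625), and the numbers of calls were 3 higher *Hbq1b* bins and 6 higher pairs for R2, and 7 higher *Hbq1b* bins, 2 higher and 0 lower *Hbq1a* bins, 8 higher and 0 lower pairs for *Mpg*. With TMM, *Hbq1b* was at 0.0042 for R2 and 0.22 for *Mpg* (edgeR adjusted p = 0.219), and DESeq2 gave 0.17 for *Mpg*; both left 0 higher *Mpg* pairs.

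The replicate numbers did not pair the samples, with same-number correlations of -0.07 to 0.07 for R2 and -0.10 to 0.21 for *Mpg*. With the replicate number as a block, *Hbq1b* from *Mpg* was at 0.40 (edgeR adjusted p = 0.105), with 0 higher *Hbq1b* bins and 1 higher pair for *Mpg*, and 1 lower pair for R2.

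For *Hbq1a* over *Hbq1b* from R2, the value was -1.06 per NlaIII fragment, -0.11 without same-bin pairs, -0.031 without adjacent fragments, -0.0090 with each fragment pair counted once, -0.55 in windows narrowed to 2 kb on each side and -0.20 without the tandem repeat. From *Mpg* it was 0.47 per fragment. *Hbq1b* over *Hba-a1* from *Mpg* was -0.57 per fragment, -0.42 without adjacent fragments, 0.088 with each pair once and 0.34 in narrowed windows. *Hbq1a* over *Hba-a2* from *Mpg* was 0.030 per fragment and 0.17 without same-bin pairs. R2 over *Mpg* in *Hbq1a* was -0.14 without same-bin pairs and -0.30 with 3 bins left out around the viewpoints.

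Without near-identical fragments, *Hbq1b* over *Hba-a1* was 0.85 for R2 and 1.72 for *Mpg*, *Hbq1a* over *Hba-a2* for R2 -0.29, *Hbq1b* over *Hba-a2* for *Mpg* -0.47, the joining contacts for *Mpg* 0.32 and R2 over *Mpg* in *Hbq1a* -0.48. With the *Hbq1a* window taken only before the bin of the gene start, an alternative chosen after seeing the data, as was leaving out the repeat, *Hbq1a* over *Hbq1b* was -0.44 for R2 and -0.20 for *Mpg*, and its D3839 minus WT was 0.052 and 0.20. Its *Mpg* end share then differed by 0.55, *Hbq1a* over *Hba-a2* was -1.01 and over the flank -0.26 for *Mpg*, R2 over *Mpg* was 0.90, and its D3839 minus WT was -0.60.

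Leaving out 1 replicate leaves 5 samples, whose smallest exact sign-flip p is 0.0625, so those calls were lost by construction. *Hbq1a* over *Hbq1b* then ranged from -0.092 to 0.064 for R2 and 1.42 to 1.71 for *Mpg*, *Hbq1b* over *Hba-a1* from -0.83 to -0.73 for R2, and *Hbq1b* over *Hba-a2* from -1.06 to -0.95 for R2 and -0.85 to -0.73 for *Mpg*. *Hbq1a* over *Hba-a2* ranged from -1.04 to -0.96 for R2 and 0.62 to 0.85 for *Mpg*, *Hbq1a* over the flank from 2.39 to 2.52 and 1.43 to 1.58, and R2 over *Mpg* from 1.03 to 1.23 in *Hbq1b* and -0.46 to -0.35 in *Hbq1a*. The joining contacts for *Mpg* ranged from -0.36 to 0.0085. By edgeR, the windows ranged from -0.11 to 0.015 (*Hbq1b*) and -0.35 to -0.20 (*Hbq1a*) for R2, and 0.26 to 0.48 for *Hbq1b* from *Mpg*. Called bins for *Mpg* ranged from 0 to 4 higher in *Hbq1b* and 0 to 2 higher in *Hbq1a*, for R2 from 0 to 1 lower in *Hbq1b*, and called pairs from 0 to 1 higher for R2 and 0 to 4 higher and 1 to 2 lower for *Mpg*.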
